A study of Danio rerio with 16 samples.

Results

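The genes of the muscle sarcomere were followed in RNA from whole zebrafish embryos whose yolk had been injected with polystyrene beads. Members were taken by the start of their gene symbol (myosin heavy and light chains, troponins, tropomyosins, sarcomeric actins, alpha-actinins, titins, myosin binding proteins C and slow myosins), and a set list of heart, smooth muscle and non-muscle symbols was left out. Heart forms tnnc1a and mybpc3, and others that heart muscle also uses, stayed among the members. Of 31388 genes in the tables, 67 matched, of which 58 encode sarcomere proteins and 9 match by name only. All 67 passed the filter on low counts, as did 23623 genes in all. A further 18 symbols were left out by the rule, and 7 symbols written in capitals were not matched.

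The study asked how the gene expression profile of wildtype embryos responds to polystyrene particles. There were 6 groups. Particle embryos had received 1 nl of red fluorescent polystyrene beads, 700 nm wide per the labels, at 5 mg/ml in polyvinylpyrrolidone (PVP) at 2 days post fertilization (dpf). Mock embryos had received 1 nl of the PVP vehicle at 2 dpf, and control embryos were not injected. RNA was taken at 3 days post injection (dpi, 5 dpf) and at 1 dpi (3 dpf), and 10 embryos are given for each library. Each time had 3 particle libraries (A, B, C), 2 mock libraries (A, B) and 3 control libraries (A, B, C). The file headers of particle library C at 3 dpi and at 1 dpi read 70 nm in place of 700 nm. Some labels also conflict on the letters. Control 1 dpi library C is called replica 1 in its sample characteristics, and a header of particle 1 dpi library B names A. Letters were taken from the sample titles, so results below that separate libraries by letter rest on those titles.

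A sarcomere is the contractile unit of striated muscle. Thick filaments of myosin heavy chains, each neck carrying a regulatory and an essential light chain and the shaft carrying myosin binding protein C, slide along thin filaments of actin. Tropomyosin lies along the actin and, with troponins C, I and T, lets myosin bind when calcium rises. Titin spans from the Z disc to the middle of the sarcomere, and alpha-actinin cross-links actin in the Z disc. Most members exist as fast, slow, heart and embryonic forms, and the trunk muscle of the zebrafish has a superficial slow layer over a thick mass of fast fibres.

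Libraries held 8679739 to 19840148 counted reads. The 8 skeletal muscle markers checked (ckma, ckmb, pvalb1, pvalb2, atp2a1, ryr1b, myod1 and myog) had counts in each of the 16 libraries, with ckma between 1970 and 7030 CPM (counts scaled to a library size of 1e6 after TMM normalization, with no correction for transcript length). Replicate letters A and B share a series name in the headers and C libraries, which exist for control and particle embryos only, are called combined. These C libraries are therefore read as a separate series, although no header says so, and values from A and B libraries alone are given beside pooled ones. Mock 3 dpi library A stood apart, with 38.8% of its counts in its 100 most counted genes and 7.51% in ribosomal protein genes, against 3.37% to 5.76% in the other 15 libraries, so results that use it are also given without it. In RNA from whole embryos, fewer muscle cells and less RNA per muscle cell cannot be told apart.

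The 58 sarcomere genes took between 3.16% and 12.3% of all gene counts in a library. At 3 dpi the share was 8.99%, 9.43% and 7.56% in particle libraries A, B and C, 12.3% and 9.92% in mock libraries A and B, and 9.96%, 8.82% and 7.56% in control libraries A, B and C. At 1 dpi it was 7.81%, 8.28% and 3.86% in particle libraries, 8.5% and 8.57% in mock libraries, and 8.34%, 6.31% and 3.16% in control libraries. The lowest values were thus those of the C libraries at 1 dpi, and the highest was that of mock 3 dpi library A. Between 10 and 21 of the 58 genes stood among the 100 most counted genes of a library.

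**Figure D1:**
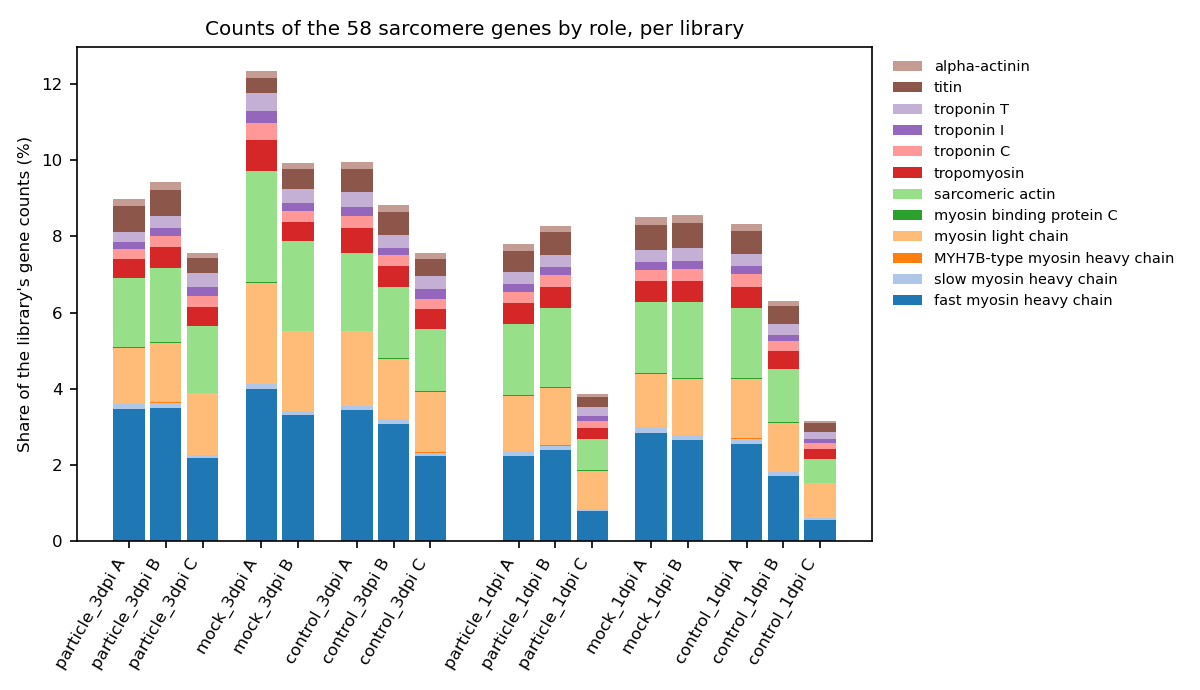
Share of each library's gene counts (%, y axis) in the 58 sarcomere genes, stacked by role, with libraries along the x axis (3 dpi on the left, 1 dpi on the right; particle, mock and control within each time). The bars of particle 1 dpi library C (3.86%) and control 1 dpi library C (3.16%) are the lowest, and that of mock 3 dpi library A (12.3%) is the highest.

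The motor of the thick filament was counted mainly from the fast heavy chains. Of the 7 fast myosin heavy chain genes, 6 (myhz1.1, myhz1.2, myhz1.3, myhz2, myhc4 and myha) lie on chromosome 5 in the files and follow each other in RefSeq GRCz12tu with 0 other protein-coding genes between them. How reads shared between such near-identical copies were counted is not given in the sources used here, so the split between them is uncertain. The most counted of them, myhz1.1, had 11200, 11200 and 6990 CPM in particle libraries A, B and C at 3 dpi, 19700 and 12800 CPM in mock libraries and 12200, 10400 and 6980 CPM in control libraries. At 1 dpi it had 6700, 7600 and 2310 CPM in particle libraries, 8110 and 7980 CPM in mock libraries and 8040, 5280 and 1780 CPM in control libraries. Libraries A and B lay above C in each of these 4 particle and control groups.

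The slow heavy chains smyhc1 and smyhc2, which mark slow fibres, took fewer counts. The smyhc2 entry carries several Entrez gene identifiers, so its counts may not come from a single slow myosin gene. At 3 dpi smyhc2 had 901, 911 and 527 CPM in particle libraries, 1260 and 747 CPM in mock libraries and 729, 716 and 548 CPM in control libraries. At 1 dpi it had 672, 608 and 268 CPM in particle libraries, 827 and 796 CPM in mock libraries and 752, 523 and 247 CPM in control libraries. Its neighbour in name smyhc1 ranged from 277 to 648 CPM over the 3 dpi libraries and from 153 to 557 CPM over the 1 dpi libraries. Both slow genes were lower in C than in A and B in each of the 4 particle and control groups, as myhz1.1 was. The third kind of heavy chain, the MYH7B type, took few counts: myh7bb had 54, 64.4 and 40.2 CPM in particle, 53.1 and 42.7 CPM in mock and 44.4, 48.4 and 44.8 CPM in control libraries at 3 dpi.

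Titin RNA did not share the high values of mock 3 dpi library A. At 3 dpi ttna had 4550, 4640 and 2580 CPM in particle libraries, 3920 and 3860 CPM in mock libraries and 4300, 4100 and 2760 CPM in control libraries. At 1 dpi ttna had 3400, 3700 and 1600 CPM in particle libraries, 3990 and 4090 CPM in mock libraries and 3730, 2950 and 1480 CPM in control libraries. The second titin gene, ttnb, ran from 1330 to 2420 CPM at 3 dpi and from 787 to 2080 CPM at 1 dpi, with the C libraries lowest at both times. On this TMM scale the mock libraries of both times, A at 3 dpi included, lay close together for both titin genes. The TMM factor of mock 3 dpi library A was 0.694, which raises its CPM. As shares of all gene counts the titins took 0.41% and 0.523% in mock libraries A and B at 3 dpi, against 0.658% and 0.656% at 1 dpi.

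Among the remaining roles, 1 gene each led the counts: actc1b for sarcomeric actin (4860 to 38800 CPM over all 16 libraries), mylpfa, the fast regulatory light chain (4380 to 18600 CPM), tpma, an alpha-tropomyosin (2000 to 11100 CPM), tnnc2, the calcium sensor of fast fibres (1650 to 6390 CPM), tnnt3b, a fast troponin T (1230 to 6400 CPM), tnni2a.4, a fast troponin I (816 to 3470 CPM), actn3a, a fast alpha-actinin (390 to 1990 CPM) and mybpc2b, a fast myosin binding protein C (42.4 to 105 CPM). In each of these 8 genes the highest CPM was that of mock 3 dpi library A, which its TMM factor of 0.694 raises. By share of gene counts the classes of mybpc2b and actn3a were not highest there. That of mybpc2b was 0.0154%, against 0.0277% in mock 1 dpi library A. That of actn3a was 0.184%, against 0.209% in mock 1 dpi library B. For actc1b the CPM was 38800 in mock 3 dpi library A and 24300 in mock library B, against 13700 to 19700 in control libraries of that time. Of the 58 genes, 30 had a median above 100 CPM over the libraries, and 2 had a library at 0: tnnc1a in mock 3 dpi library A and tnni1a in control 1 dpi library C, where 0 counts allow up to 0.326 CPM and 0.152 CPM by counting error.

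Members moved together between library series at 1 dpi. In control library C, 54 of the 58 genes lay below the mean of libraries A and B, with a median log2 difference of -0.79, and in particle library C 56 of 58 lay below it, with a median of -1.07. The difference was largest for fast myosin heavy chains (class medians -1.80 in control and -1.63 in particle embryos) and small for troponin T in control embryos (-0.39). The fast troponin T tnnt3a went the other way in control C, at 326 CPM against 188 and 199 CPM in A and B. At 3 dpi the C libraries were closer, with medians of -0.27 in control and -0.33 in particle embryos. Heart markers (11 matched genes) also summed to 31.4 CPM in control 1 dpi C, against 111 and 63.5 CPM in A and B, and smooth muscle markers (12 genes) to 70.7 CPM, against 199 and 151 CPM. The part of the library series in any pooled result was not tested beyond the A and B values and the fits with a term for series or replicate given below.

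**Figure D2:**
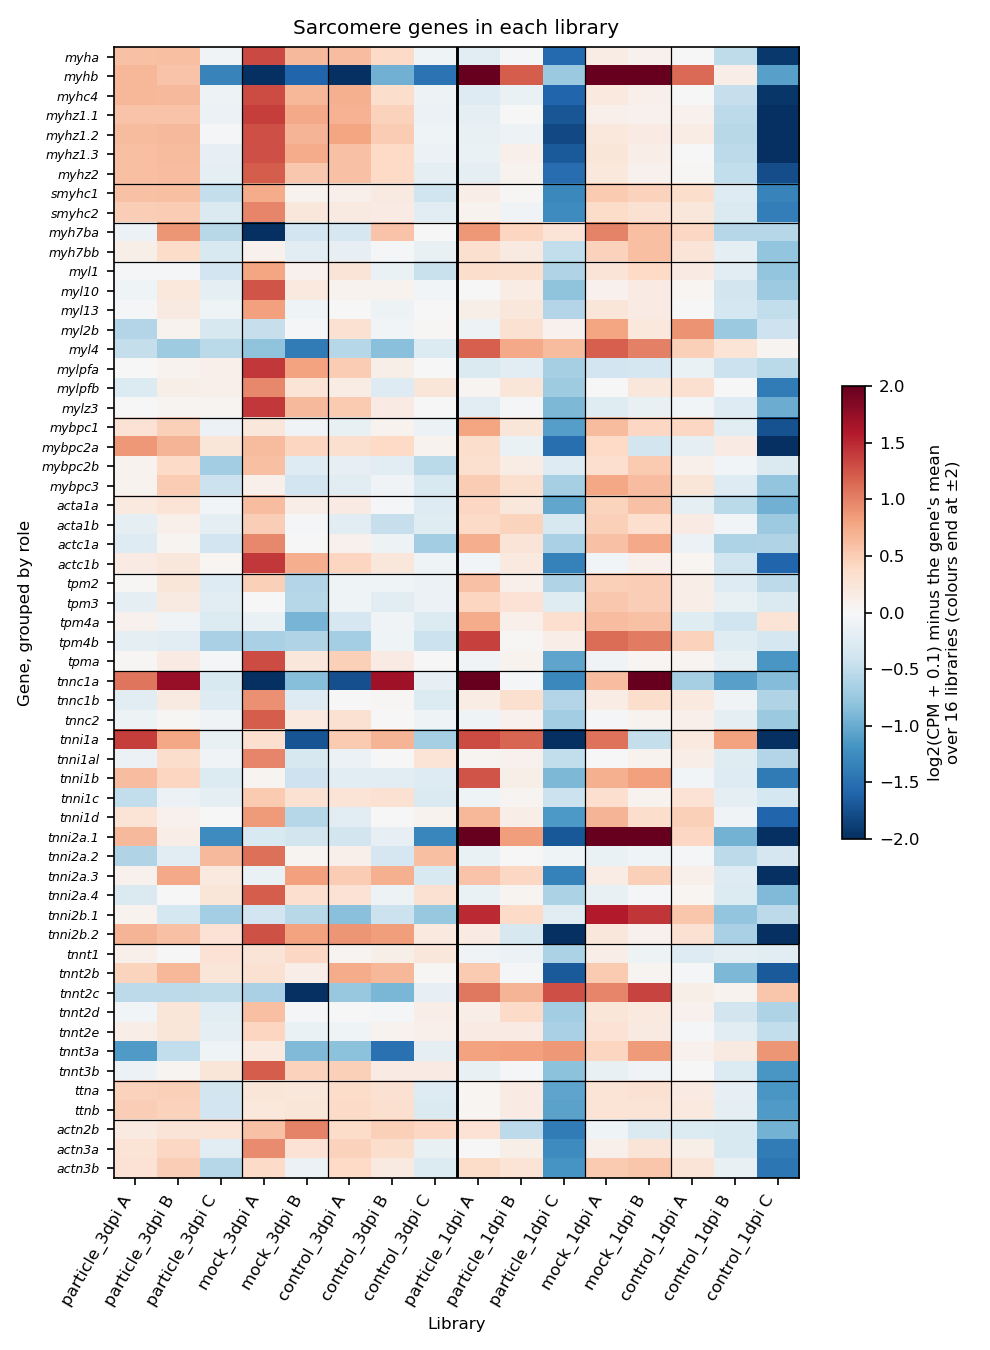
Each of the 58 sarcomere genes (rows, grouped by role) in each of the 16 libraries (columns), as log2(CPM + 0.1) minus the gene's mean over the libraries. The columns of particle and control library C at 1 dpi are mostly blue (56 and 54 of 58 genes below their A and B libraries), the column of mock 3 dpi library A is mostly red (49 of 58 above library B), and the rows of myl4 and tnnt2c are blue in the 3 dpi columns.

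How many sarcomere genes changed between 1 and 3 dpi depended on how the library series was handled. In every fit over all 16 libraries that is named here, essential light chain myl4, an atrial and embryonic form in mammals, and troponin T gene tnnt2c fell with time in particle and in mock embryos. Light chains mylpfa and mylz3, a fast regulatory and a fast essential one, rose in mock embryos, although mylz3 was not called when scaled to library totals. With group means alone, in control embryos 0 of the 58 genes were called by edgeR's quasi-likelihood test (adjusted p under 0.05). Unadjusted p was under 0.05 for 9 of the 58 and for 4280 of all 23623 genes. Of all genes tested 1.39% were called (1.19% higher, 0.203% lower). In particle embryos 2 genes fell and 0 rose, against 0.508% and 1.56% of all genes, and in mock embryos 8 fell and 2 rose, against 12.5% and 11.1% of all genes. The medians of the 58 log2 differences were 0.31 in control, 0.13 in particle and 0.02 in mock embryos, beside -0.00127, 0.00534 and -0.00595 over all genes. Among A and B libraries alone they were 0.18, -0.07 and 0.01, and the mock median was -0.28 without mock 3 dpi library A, so the sign of the particle and mock medians rests on the libraries used. A term for library series (C against A and B) was also added to the edgeR fit, an alternative chosen after seeing the data. It gave 12 called genes in control embryos (10 higher, 2 lower), beside 7.81% of all genes. In particle embryos 9 were called (6 higher, 3 lower), beside 9.5%, and in mock embryos 20 (9 higher, 11 lower), beside 33.5%. The 6 particle risers, and 6 of the 10 control risers, are the neighbouring fast heavy chain copies of chromosome 5. How reads were split between these copies is uncertain, so they are not 6 separate observations.

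The fall of myl4 stood in every library. In particle embryos it had 5.5, 4.64 and 5.24 CPM at 3 dpi, against 17.8, 13.1 and 12 CPM at 1 dpi (libraries A, B and C), a log2 difference of -1.48 (SE 0.217, edgeR adjusted p = 0.00492). In mock embryos it had 4.35 and 2.86 CPM at 3 dpi, against 17.7 and 15.6 CPM at 1 dpi (-2.20, SE 0.282, edgeR adjusted p = 0.000523). In control embryos it had 5.12, 4.25 and 6.34 CPM at 3 dpi, against 10.7, 9.3 and 8.01 CPM at 1 dpi (-0.82, SE 0.218, edgeR adjusted p = 0.0799). The times did not overlap in any of the 3 treatments. Among A and B libraries alone the control difference was -1.08 (edgeR adjusted p = 0.0455).

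Troponin T gene tnnt2c, of the family whose best known member works in the heart, followed the same course. It had 4.3, 4.3 and 4.33 CPM at 3 dpi in particle embryos, against 13.1, 10 and 15.4 CPM at 1 dpi (log2 -1.57, SE 0.3, edgeR adjusted p = 0.0167). In mock embryos it had 3.92 and 1.43 CPM at 3 dpi, against 12.4 and 16.1 CPM at 1 dpi (-2.39, SE 0.395, edgeR adjusted p = 0.00187). In control embryos it had 3.65, 3.24 and 5.57 CPM at 3 dpi, against 6.74, 6.51 and 9.18 CPM at 1 dpi (-0.83, edgeR adjusted p = 0.179). The 2 times were again apart in each treatment. The particle call was lost without 1 dpi library C, 3 dpi library A or 3 dpi library B, at edgeR adjusted p = 0.0742, 0.0898 and 0.059.

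The fast troponin T tnnt3a had 99.7, 62.3 and 154 CPM at 3 dpi in control embryos, against 188, 199 and 326 CPM at 1 dpi, a log2 difference of -1.17 (SE 0.359) that edgeR did not call (adjusted p = 0.119). DESeq2 called it and myl4 in control embryos, at adjusted p = 0.027 and 0.0228, where it called 5.5% of all genes, and limma-voom called 0 members. Its counterpart tnnt3b, the more counted fast troponin T, had 3850, 3100 and 3070 CPM at 3 dpi in control embryos, against 2760, 2270 and 1230 CPM at 1 dpi (0.68, edgeR adjusted p = 0.242). Within each control series, A, B and C, tnnt3a was thus lower and tnnt3b higher at 3 dpi than at 1 dpi. In particle embryos tnnt3a had 80.1, 125 and 166 CPM at 3 dpi, against 308, 310 and 322 CPM at 1 dpi (-1.34, edgeR adjusted p = 0.0696), and among A and B libraries alone the difference was -1.60 (adjusted p = 0.0238).

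Mock embryos had the most called differences with time, and they had the largest share of called genes overall. Rare fast heavy chain myhb had 2.5 and 5.59 CPM at 3 dpi in mock embryos, against 103 and 108 CPM at 1 dpi (log2 -4.72, SE 1.12, edgeR adjusted p = 0.00982). The MYH7B-type myh7ba fell to 1.41 and 6.5 CPM at 3 dpi, against 17 and 12.9 CPM at 1 dpi (-1.94, SE 0.614, edgeR adjusted p = 0.0354). Of the 5 tropomyosin genes 3 fell, tpm3 by 0.77 on the log2 scale, tpm4a by 1.07 and tpm4b by 1.72, with tpm4a at 29.2 and 16.6 CPM at 3 dpi against 48.9 and 47.7 CPM at 1 dpi. In control 1 dpi library C, where 54 of the 58 genes were low, tpm4a had 38.4 CPM against 26.8 and 24.1 CPM in A and B. In particle 1 dpi C it had 40.3 CPM against 53.3 and 34.2 CPM. The part of cells other than muscle in these tropomyosin values was not tested. Fast troponin I copy tnni2b.1 fell to 14.1 and 12.4 CPM at 3 dpi, against 55 and 49.8 CPM at 1 dpi (-1.98, edgeR adjusted p = 0.0136). Each of these 6 genes had both mock libraries lower at 3 dpi than at 1 dpi. Leaving out a mock library leaves 1 in its group, so how far these calls rest on single mock libraries was not tested. Without mock 3 dpi library A, myhb stood at -4.24, myh7ba at -1.21, tpm4b at -1.71, tnni2b.1 at -2.09, tpm3 at -1.09 and tpm4a at -1.54. Without mock 3 dpi library B tpm3 stood at -0.53 and tpm4a at -0.74. Over the 58 genes the mock times did not overlap in 21 that were higher and 19 that were lower at 3 dpi, as for 33.5% and 34.8% of all genes. At 1 dpi, myhb was high in only some 1 dpi libraries: it had 142, 39.3 and 10.1 CPM in particle A, B and C and 37.3, 18.7 and 7.95 CPM in control A, B and C.

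The 2 risers in mock embryos were fast light chains. Light chain mylpfa had 18600 and 12100 CPM at 3 dpi, against 5330 and 5510 CPM at 1 dpi (log2 1.5, SE 0.266, edgeR adjusted p = 0.00249). Its partner on the myosin neck, mylz3, had 14800 and 8710 CPM at 3 dpi, against 4690 and 5030 CPM at 1 dpi (1.27, SE 0.352, edgeR adjusted p = 0.02). Both libraries of 3 dpi were above both of 1 dpi, and A was the higher. Scaled to library totals, mylz3 stood at 0.79 and was not called (edgeR adjusted p = 0.0718). Without mock 3 dpi library A, which leaves 1 mock library at that time, mylpfa stood at 1.15 and mylz3 at 0.83. Among A and B libraries alone 14 genes rose and 11 fell, where 17.8% and 18.1% of all genes did, and the 14 included 6 of the fast heavy chain genes.

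**Figure D3:**
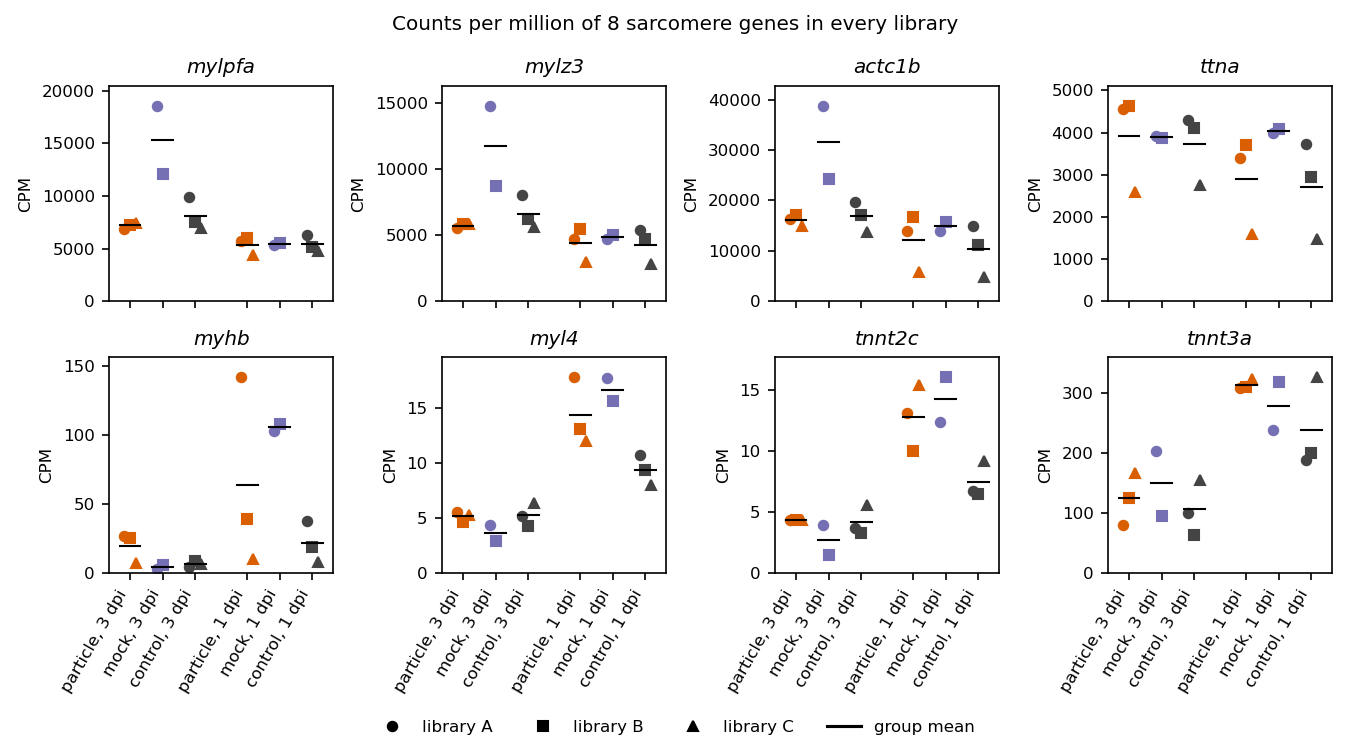
CPM (y axis, from 0, its range set for each gene) of 8 sarcomere genes in every library, by group (3 dpi on the left, 1 dpi on the right), with symbols for library letters and a line at each group mean. The upper row shows mylpfa, mylz3 and actc1b highest in mock 3 dpi library A and ttna level there, and the lower row shows myhb, myl4, tnnt2c and tnnt3a, with myl4 lower in every 3 dpi library than in every 1 dpi library.

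The fast heavy chains as a class had positive median differences with time in every library series, of unequal size. Over the 7 genes the median log2 difference of control embryos was 0.96, and 6 were above 0. In single series it was 0.60 in control A, 0.90 in control B and 1.85 in control C, and in particle embryos 0.79, 0.56 and 1.49. None of the 7 was called in control or particle embryos with group means alone. With the library series term, the 6 genes of the chromosome 5 cluster rose in both, with myhc4 at 1.11 (SE 0.242, edgeR adjusted p = 0.0151) in control and 1.07 (SE 0.241, edgeR adjusted p = 0.015) in particle embryos, and with edgeR adjusted p of 0.019 to 0.0242 and 0.0257 to 0.0429 for the other 5. The alpha-actinin actn2b, whose mammalian counterpart is in heart and skeletal muscle, had 29.2, 31.5 and 30.3 CPM at 3 dpi in control embryos, against 18.7, 18.4 and 11.7 CPM at 1 dpi (0.90, SE 0.312, edgeR adjusted p = 0.158). Control mylpfa stood at 9920, 7510 and 6990 CPM at 3 dpi, against 6340, 5150 and 4770 CPM at 1 dpi (0.59, edgeR adjusted p = 0.179). Neither gene's control libraries overlapped between times, as was so for 6 of the 58 genes that were higher and 3 that were lower at 3 dpi, against 12.5% and 11% of all genes.

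Slow counts per 100 fast myosin heavy chain counts were lower at 3 dpi. The ratio was 4.08 ± 0.266 (SD, n = 3) in particle, 3.21 ± 0.177 (n = 2) in mock and 3.57 ± 0.43 (n = 3) in control embryos at 3 dpi. At 1 dpi it was 5.16 ± 0.78 (n = 3) in particle, 5.29 ± 0.0212 (n = 2) in mock and 5.86 ± 1.18 (n = 3) in control embryos. Every 3 dpi library (3.08 to 4.24) lay below every 1 dpi library (4.32 to 7.22). Over all forms sorted into slow (10 genes) and fast (24 genes) the times overlapped, at 1.89 to 2.94 slow counts per 100 fast counts at 3 dpi and 2.68 to 3.51 at 1 dpi, and particle library B had 2.94 at 3 dpi against 2.72 at 1 dpi. The myosin ratio is of counts and is not corrected for transcript length, and it is given as a description with no test. Its slow part includes the smyhc2 entry, which may not be a single gene.

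**Figure D4:**
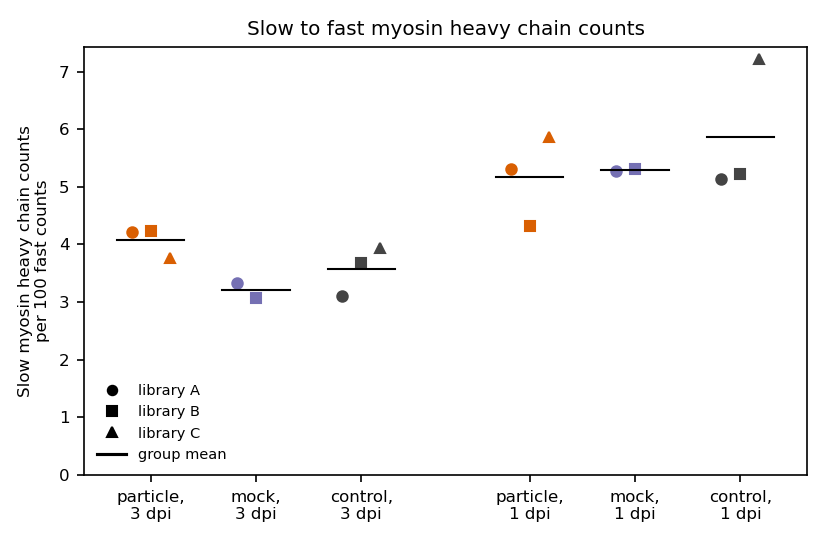
Slow myosin heavy chain counts (smyhc1 and smyhc2) per 100 fast myosin heavy chain counts (7 genes), y axis from 0, by group on the x axis (3 dpi on the left, 1 dpi on the right), with symbols for library letters and a line at each group mean. All 3 dpi libraries lie between 3.08 and 4.24 and all 1 dpi libraries between 4.32 and 7.22.

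Heart marker levels are relevant to the forms that heart muscle also uses (myl4, tpm4a, tnnt2b, tnnt2c, actc1a, tnnc1a and mybpc3). The 11 heart markers summed to 54.3 to 157 CPM in particle, 65.2 to 98.0 CPM in mock and 54.8 to 102 CPM in control embryos at 3 dpi. At 1 dpi they summed to 41.0 to 158 CPM in particle, 138 CPM in both mock libraries, and 31.4 to 111 CPM in control embryos. Marker nppb was at 0 in 7 libraries, nppa and gata4 in 1 library each, and none of the other 8 in any. The median log2 difference with time of the 10 heart markers tested was 0.49 in control, -0.17 in particle and -1.04 in mock embryos, while myl4 and tnnt2c were below 0 in each. In mock embryos 1 of the 10, hand2, was called lower (-2.56), where 12.5% of all genes were. Without mock 3 dpi library A, which leaves 1 mock library at that time, hand2 stood at -3.1. The part of heart RNA in the values of these genes was not tested.

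At 3 dpi the fast regulatory light chain mylpfa was lower in particle than in mock embryos, and no other sarcomere gene was called. Of the 58 genes 1 was called by edgeR, mylpfa, which was lower, and 0 were called higher, against 3.34% and 5.3% of all genes (8.64% in either direction). It had 6910, 7280 and 7450 CPM in particle libraries A, B and C, against 18600 and 12100 CPM in mock libraries A and B, a log2 difference of -1.09 (SE 0.235, edgeR adjusted p = 0.0204). The groups did not overlap, while the particle libraries overlapped the control libraries of that time (6990 to 9920 CPM). Particle and mock embryos did not overlap in 16 genes that were lower and in 4 that were higher, as for 20.4% and 22.7% of all genes.

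Other members with low unadjusted p in that comparison included tnnc2 and tnni2a.4, the most counted genes of their roles, and mylz3, which ranked 2 among light chains. Of the 10 genes with an unadjusted p under 0.05, 6 are fast forms, 1 is a slow form (tnni1c) and 3 are neither. Over all 23623 genes tested, 6544 had such a p. Among the 10, myhb and myh7ba were above 0. The essential light chain mylz3 had 5560, 5820 and 5820 CPM in particle libraries, against 14800 and 8710 CPM in mock libraries (-1.03, edgeR adjusted p = 0.0544). Calcium sensor tnnc2 had 2590, 2820 and 2650 CPM in particle libraries, against 6390 and 3170 CPM in mock libraries (-0.83, edgeR adjusted p = 0.0991). Troponin I copy tnni2a.4 had 1230, 1520 and 1790 CPM in particle libraries, against 3470 and 1900 CPM in mock libraries (-0.83, edgeR adjusted p = 0.0979). In each of these 3 genes the distance from mock library A was larger than that from mock library B. By role, the median log2 difference was -0.64 for 8 light chains, -0.55 for 4 actins, -0.58 for 7 fast heavy chains, -0.54 for 3 troponins C, 0.12 for 4 myosin binding proteins C and 0.02 for both titins. The median of the 58 was -0.26, beside 0.03 over all genes.

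These differences leaned on mock 3 dpi library A. In it 49 of the 58 genes were above mock library B, by a median log2 of 0.62, while the titin class differed by -0.01. Without this library mylpfa stood at -0.75 and the median of the 58 was 0.02, whereas without mock library B the median was -0.59. Each of these fits holds 1 mock library, so calls from them are not set beside the pooled call. The call of mylpfa was lost without particle library A or B (edgeR adjusted p = 0.0715 and 0.072). Among A and B libraries alone 7 fell (mylpfa, mylz3, actc1b, tnni1c, tnni2a.2, tnni2a.4 and tnnt3b) and myhb rose, where 11.5% and 12.8% of all genes did. With mock library A also left out, which again leaves 1 mock library, mylpfa fell by 0.76. DESeq2 called 4 members lower (mylpfa, mylz3, tnnc2 and tnni2a.4). The share of all genes that it called is not given, so this count is not read as a result about sarcomere genes. With the library series term mylpfa and mylz3 fell and myhb rose, where 23.2% of all genes were called. Scaling to library totals in place of TMM moved the median of all genes by 0.35 and that of the 58 to 0.13, so that the sign of that median rests on the scaling. The 10 heart markers tested had a median of 0.87 in the same comparison, with 0 called.

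Mock over control at 3 dpi shares its mock libraries with that comparison, so the values are given side by side and not as a second observation. By edgeR 0 of the 58 genes were called (6 with an unadjusted p under 0.05) where 1.61% of all genes were. Unadjusted p was under 0.05 for 4963 of all 23623 genes. DESeq2 called mylpfa and limma-voom 0 members, both given without their shares of all genes and so not read as results about sarcomere genes. In mylpfa the mock libraries, at 18600 and 12100 CPM, lay above all control libraries, at 9920, 7510 and 6990 CPM (0.91, SE 0.235, edgeR adjusted p = 0.063). Light chain mylz3 had 14800 and 8710 CPM in mock libraries, against 8040, 6230 and 5590 CPM in control libraries (0.83, edgeR adjusted p = 0.151). Light chain myl10 had 519 and 249 CPM in mock libraries, against 229, 228 and 208 CPM in control libraries (0.79, edgeR adjusted p = 0.163). The median of the 58 was 0.39, it was 0.30 among A and B libraries, and it was 0.07 without mock library A. Scaling to library totals moved the median of all genes by -0.33 and that of the 58 to 0.02. The groups did not overlap in 14 genes that were higher and 1 that was lower in mock embryos, as for 18.3% and 20.7% of all genes.

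**Figure D5:**
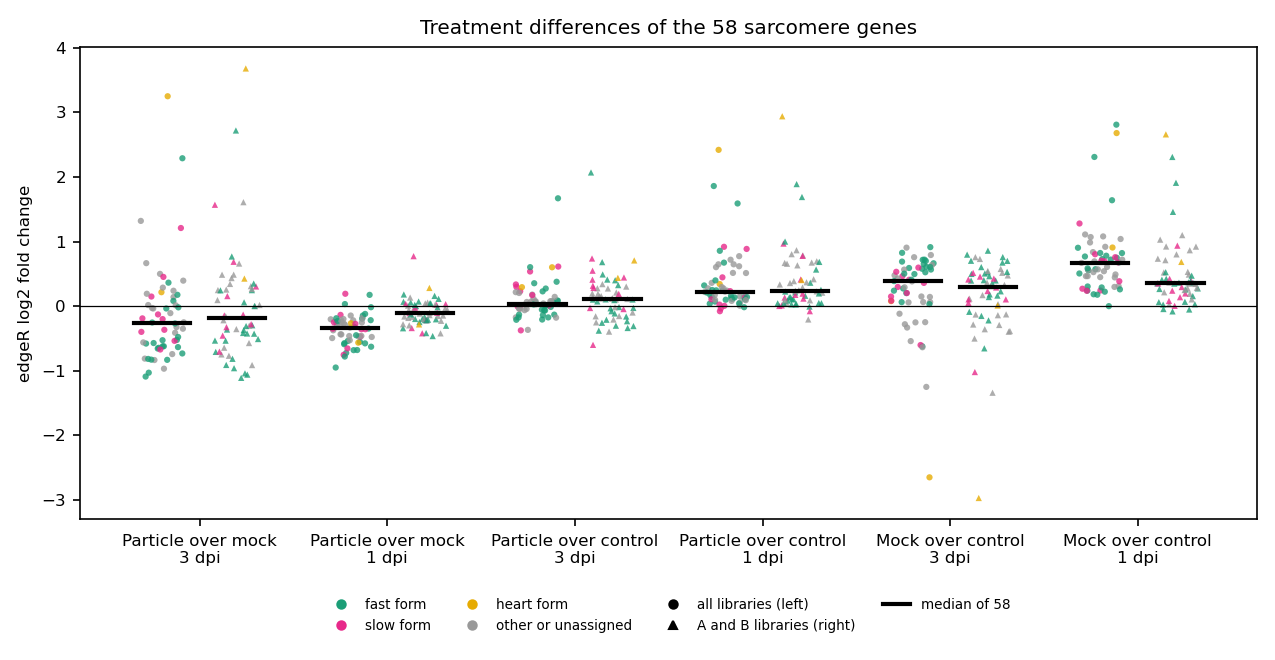
edgeR log2 fold changes (y axis) of the 58 sarcomere genes in the 6 treatment comparisons (x axis), from all libraries (circles, left) and from A and B libraries alone (triangles, right), coloured by fibre type of the form, with a bar at the median. The median is 0.67 for mock over control at 1 dpi with all libraries and 0.35 with A and B libraries, and it is 0.04 for particle over control at 3 dpi.

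At 1 dpi no sarcomere gene was called between mock and control embryos. All 58 log2 differences were above 0, with a median of 0.67 beside -0.03 over all genes. The groups did not overlap in 36 of the 58, all higher in mock, as for 19.5% of all genes. By edgeR 0 were called (14 with an unadjusted p under 0.05), as were 0% of all genes, and DESeq2 and limma-voom called 0 members. Of all 23623 genes, 2678 had an unadjusted edgeR p under 0.05. Control library C, the lowest of all libraries, and the absence of a mock library of that series enter the median of 0.67. Among A and B libraries alone the median was 0.35 and 0 were called.

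The genes with the smallest p in that comparison included copies of fast troponin I and a skeletal actin. Troponin I copy tnni2b.1 had 55 and 49.8 CPM in mock libraries, against 27, 10.6 and 12.8 CPM in control libraries (1.64, SE 0.433, edgeR adjusted p = 0.428). Its relative tnni2a.1 had 24.7 and 20.7 CPM in mock libraries, against 6.51, 2.48 and 0.867 CPM in control libraries (2.81, SE 0.888, edgeR adjusted p = 0.432). Skeletal actin acta1a had 745 and 827 CPM in mock libraries, against 486, 378 and 280 CPM in control libraries (1.04, SE 0.335, edgeR adjusted p = 0.432). In each of the 3 genes both mock libraries lay above all control libraries. For myl4 the mock libraries (17.7 and 15.6 CPM) also lay above the control libraries (10.7, 9.3 and 8.01 CPM), at 0.84 (SE 0.232). Heart and smooth muscle markers had medians of 1.12 and 1.06 in this comparison, with 0 called, and their part in it was not tested.

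Particle embryos at 1 dpi were below mock embryos and above control embryos in the median of the 58 genes. Over mock, the median of the 58 was -0.34 with 55 below 0, and 18 genes were lower without overlap, as for 13.2% of all genes. By edgeR 0 of the 58 were called and 0 had an unadjusted p under 0.05, where 0% of all genes were called, and DESeq2 and limma-voom called 0 members. The unadjusted edgeR p was under 0.05 for 555 of all 23623 genes. Among A and B libraries alone the median was -0.11, nearer to 0. The smallest p values were those of tnni2b.1 (51.9, 24 and 15.8 CPM in particle libraries, against 55 and 49.8 CPM in mock libraries), myh7bb, mybpc3 and smyhc1, all at edgeR adjusted p = 0.921. For smyhc1 the particle libraries, at 422, 390 and 157 CPM, lay below the mock libraries, at 557 and 531 CPM.

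Over control at 1 dpi, 55 of the 58 genes were above 0 in particle embryos, with a median of 0.22, and of 0.23 among A and B libraries. By edgeR 0 were called (5 with an unadjusted p under 0.05), where 0.00423% of all genes were, and DESeq2 and limma-voom called 0 members. Of all 23623 genes, 535 had an unadjusted edgeR p under 0.05. Groups did not overlap in 2 genes that were higher and 0 that were lower in particle embryos, as for 2.82% and 2.7% of all genes. They were myl4, at 17.8, 13.1 and 12 CPM in particle libraries against 10.7, 9.3 and 8.01 CPM in control libraries (0.62, SE 0.211), and tnnt2c, at 13.1, 10 and 15.4 CPM in particle libraries against 6.74, 6.51 and 9.18 CPM in control libraries (0.77, SE 0.292), both at an edgeR adjusted p of 1. The 10 heart markers tested were all above 0 in this comparison, with a median of 0.86 and 0 called, and their part in both genes was not tested.

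Particle over control at 3 dpi showed no called sarcomere gene. The median of the 58 was 0.04 (0.11 among A and B libraries), and 0 were called by edgeR, DESeq2 or limma-voom or had an unadjusted p under 0.05, where 0% of all genes were called. The unadjusted edgeR p was under 0.05 for 370 of all 23623 genes. Groups did not overlap in 1 gene in each direction, as for 3.16% of all genes in the higher and 2.58% in the lower direction. The smallest p was that of myhb, at 26.9, 25.4 and 6.69 CPM in particle libraries against 3.84, 8.72 and 6.05 CPM in control libraries (1.67, SE 0.812, edgeR adjusted p of 1). Particle libraries A and B were above all control libraries and C was not. Slow troponin I copies tnni1c and tnni1b, at -0.38 and 0.54, and mybpc2b, at 0.27, came next. The SE of the log2 difference was 0.235 for mylpfa between particle and mock at 3 dpi and 0.812 for myhb here, so that the size of difference that could be seen varied with the gene.

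Tests of whether a difference itself changed from 1 to 3 dpi called 0 of the 58 genes by edgeR. They called 0.00423% of all genes for particle against mock and 0% for the comparisons with control. The smallest p values for particle against mock were those of mylpfa (-1.07, SE 0.338, edgeR adjusted p = 0.104) and myhb (3.01, SE 1.29, edgeR adjusted p = 0.18). Both were called among A and B libraries alone (-1.22 and 2.94, edgeR adjusted p = 0.0423 and 0.0452), where 10.7% of all genes were called. For mock against control the smallest p values were those of myl4 (-1.38, SE 0.353, edgeR adjusted p = 0.0845) and tnnt2c (-1.55, SE 0.492, edgeR adjusted p = 0.111). With the library series term edgeR called mylpfa and myhb for particle against mock, where 13% of all genes were called. For mock against control that fit called myl4, tnnt2c, myhb, myh7ba and tnni2a.1, where 11.4% of all genes were called. Among A and B libraries alone 0 members were called for mock against control, where 0.952% of all genes were. The fit with the series term was not run without mock 3 dpi library A, so whether its calls rest on that library was not tested. With group means and single libraries left out in turn, the change of mylpfa for particle against mock ran from -1.34 to -0.73. That of myl4 for mock against control ran from -1.72 to -1.13. For particle against control myl4 had the smallest (-0.66, SE 0.306, edgeR adjusted p of 1). Unadjusted p under 0.05 was seen for 2, 10 and 1 genes in particle against mock, mock against control and particle against control, and limma-voom called 0 in each. Of all 23623 genes, 5665, 5528 and 212 had such an edgeR p, in the same order. DESeq2 called 1, 3 and 0, given without its shares of all genes and so not read as results about sarcomere genes.

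Genes that serve the sarcomere were read from lists. In the list of Z disc, M band and thin filament cap genes (39 tested), 2 rose with time in control embryos. Over all 23623 genes tested, 280 were called higher there. The 2 were tcap, whose product telethonin binds titin at the Z disc, and nebl, a nebulin relative. In control embryos tcap had 21.7, 20 and 55.6 CPM at 3 dpi, against 5.89, 2.07 and 0.714 CPM at 1 dpi (3.53, SE 0.694, edgeR adjusted p = 0.0263). In mock embryos 2 of that list rose (tcap and nebl) and 6 fell, against 11.1% and 12.5% of all genes, among them flncb, a filamin (-1.90, SE 0.345), and xirp1 (-1.42). Of 15 chaperone and turnover genes, fbxo32, a muscle ubiquitin ligase known as atrogin-1, rose with time in particle embryos to 67.6, 26 and 3.43 CPM at 3 dpi, against 2, 1.35 and 1.27 CPM at 1 dpi (4.39, SE 0.964, edgeR adjusted p = 0.0323), and in mock embryos to 80.5 and 45.5 CPM, against 1.79 and 1.95 CPM (5.07, SE 1.2). The level at 3 dpi differed widely between libraries, with 5.39, 27.9 and 2.98 CPM in control A, B and C. In the same list capn3b, a muscle calpain, fell in particle embryos (-1.43) and in mock embryos (-1.67), and trim63b, another ubiquitin ligase, rose in mock embryos (2.12). With time in particle embryos, 369 of all 23623 genes were called higher and 120 lower.

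Calcium handling, metabolism and transcription factor genes are given beside the same shares of all genes, 5.3% higher and 3.34% lower for particle over mock at 3 dpi and 11.1% higher and 12.5% lower for mock embryos with time. Of 22 excitation-contraction coupling genes 2 were higher in particle than in mock embryos: cacnb1, a calcium channel subunit, at 31.6, 35.5 and 20.6 CPM against 6.96 and 16.5 CPM (1.32, edgeR adjusted p = 0.0423), and sypl2b (0.85), which was also lower in mock than in control embryos (-1.01). With time 7 of the 22 fell in mock embryos. Of 20 energy and calcium buffering genes 2 were lower in particle than in mock embryos, adenylate kinase ak1 (-1.14) and the fatty acid binding protein fabp3 (-0.80), and with time in mock embryos 4 rose, among them the parvalbumins pvalb1 (1.57) and pvalb2 (1.42), and 2 fell, among them myoglobin mb (-1.94). Of 21 myogenic factor genes six1a, a transcription factor of fast muscle in zebrafish, was higher in particle than in mock embryos at 3 dpi, at 4.02, 5.5 and 6.15 CPM against 1.96 and 1.3 CPM (1.67, SE 0.302, edgeR adjusted p = 0.014), and lower in mock than in control embryos (-1.38). In 12 neuromuscular junction genes 3 fell with time in mock embryos, among them the acetylcholine receptor subunit chrnb1 (-1.76). Leaving out mock 3 dpi library A leaves 1 mock library at that time, so only log2 values of that fit are given. For particle over mock they were 0.815 for cacnb1, 0.82 for sypl2b, 2 for six1a, -0.67 for ak1 and -0.45 for fabp3. For mock over control they were -0.98 for sypl2b and -1.72 for six1a. With time in mock embryos pvalb1 stood at 0.99, pvalb2 at 0.78, mb at -2.6 and chrnb1 at -1.36. No gene of the 6 muscle lists was called at 1 dpi by edgeR, where at most 0.00423% of all genes were called.

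Of the 5 non-muscle myosin genes 1 was called in each direction between particle and mock embryos at 3 dpi. Over all 23623 genes tested, 1252 were called higher and 790 lower in that comparison. Heavy chain myh9b had 49.3, 56.6 and 37.7 CPM in particle libraries at 3 dpi, against 20.7 and 29.1 CPM in mock libraries (0.94, SE 0.249, edgeR adjusted p = 0.0365). Light chain myl12.2 had 31, 30.3 and 38 CPM in particle libraries, against 88.2 and 39.7 CPM in mock libraries (-0.95, SE 0.246, edgeR adjusted p = 0.0339). Without mock library A, which leaves 1 mock library, myh9b stood at 0.71 and myl12.2 at -0.27. The sum of the 5 non-muscle myosin genes was alike between groups at 3 dpi, at 405 to 479 CPM in particle, 427 to 467 CPM in mock and 454 to 466 CPM in control libraries.

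A further 9 members matched by name only and are not sarcomere genes: the myosin light chain kinases mylk2, mylk3, mylk4a and mylk4b, the kinase tnni3k, the thiopurine methyltransferases tpmt.1 and tpmt.2, the non-muscle heavy chain myh14 and the non-muscle and smooth muscle light chain myl6. Of these myh14 had the clearest difference, with 16.1, 22.9 and 17.3 CPM in particle libraries at 3 dpi, against 2.5 and 5.98 CPM in mock libraries (2.16, SE 0.317, edgeR adjusted p = 0.00951). Its mock libraries were also below the control libraries, at 14.1, 19.4 and 17.5 CPM (-2.02, edgeR adjusted p = 0.0311), and below the mock libraries of 1 dpi, at 24.1 and 25.5 CPM (-2.56). Without mock 3 dpi library A, which leaves 1 mock library at that time, the values were 1.64 for particle over mock, -1.5 for mock over control and -2.06 with time. The kinase mylk2 fell with time in mock embryos (-2.08, and -1.46 without that library), to 0.326 and 1.04 CPM at 3 dpi, against 2.62 and 3.08 CPM at 1 dpi. None of the other 7 was called by edgeR in any of the 12 comparisons.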

How the data were processed

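Whole-embryo RNA of 16 libraries was sequenced. The authors deposited whole-number read counts per gene, handled here as estimated counts because how shared reads were counted is not given in the sources used here; rounding changed no value. Bowtie2, SAMtools, DESeq and GRCz10 are named in the submitters' processing notes, without versions or order. A size factor and a blank line at the foot of each file were left out. Depth was 8679739 to 19840148 counts.

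Counts were tested with edgeR 4.0.16 (R 4.3.3), quasi-likelihood, TMM scaling and filterByExpr (minimum count 10, minimum total 15), with 6 group means over all 16 libraries, and p-values adjusted by Benjamini-Hochberg over 23623 genes, threshold 0.05, in 12 comparisons. The SE is the log2 difference over the square root of F. Fits were tested on simulated data. Alternatives used DESeq2 1.42.0, limma 3.58.1 (voom), other scaling and filters, subsets of libraries, a replicate block and each library left out. Library-total scaling, a library series term (C against A and B), and A and B libraries without mock 3 dpi library A, were chosen after seeing the data.

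Members, roles and lists were chosen with earlier results of these data known. Named were the most counted gene of each role, both titins and both slow heavy chains, up to 12 called genes per comparison (or the 4 with the smallest p), and up to 3 called genes per list; tnnt3b in control embryos, xirp1, nebl and other genes given for context were added by hand after their values were seen. The labels call the samples biological replicas, each from pooled embryos. Limits that 0 counts allow (3 counts) cover counting error only.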

Additional observations from a re-analysis of the deposited data

How the results depend on the processing

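Counts of the 58 genes called moved with the libraries used and with the terms for replicate or library series. The share of all genes called moved as well. Among A and B libraries alone it was 24.3% for particle over mock at 3 dpi. With time it was 2.91% in control, 4.7% in particle and 35.8% in mock embryos there, and 10.7% for the change of particle over mock. The counts below are therefore not by themselves results about sarcomere genes. For particle over mock at 3 dpi (1 called), library totals gave 3, DESeq2 4, the replicate block 3, the library series term 3, A and B libraries 8, the same without mock 3 dpi library A 3, and fits on libraries of that time or on the 2 groups alone 0; leaving out single libraries gave 0 to 6. For mock over control at 3 dpi (0), DESeq2, the replicate block and the library series term gave 1 each and single libraries left out 0 to 4. With time, control embryos (0) gave 2 by DESeq2, 10 with the replicate block, 12 with the series term and 1 in A and B libraries; particle embryos (2) gave 8 with the replicate block, 9 with the series term and 1 to 2 with libraries left out; mock embryos (10) gave 18 with the replicate block, 20 with the series term, 25 in A and B libraries, 20 in these without mock 3 dpi library A, and 4 to 12 with libraries left out. The change of particle over mock (0) gave 1 by DESeq2, 2 with the replicate block, 2 with the series term, 2 in A and B libraries, 1 in these without mock 3 dpi library A and 0 to 2 with libraries left out. The change of mock over control (0) gave 3 by library totals, 3 by DESeq2, 4 with the replicate block, 5 with the series term and 0 to 2 with libraries left out. The cause was not tested. Replicate letters were not taken as pairs, since only some same-letter pairs of libraries deviated together. The correlation r was over 0.1 in 5 of 15 A pairs and 4 of 15 B pairs, against 6 of 6 C pairs (0.321 to 0.745), hence the series term. These sets are unlike, since A and B pairs include mock libraries and C pairs do not. In a group of 2 libraries the deviations from the mean mirror each other. Between control and particle libraries alone, r ran from -0.0932 to 0.571 for A and from -0.00604 to 0.305 for B. Pairing by letter among A or B libraries is therefore not settled. Of the single-gene values, 735 kept their side of the threshold, 32 lost and 35 gained a call, and 0 changed sign. The 735 include genes called in neither fit, and most comparisons contribute uncalled genes only. The 32 losses all fall on the few genes called in the main fit, so the 735 are no measure of how stable those calls are. Where a mock group was left with 1 library, that library was assumed to vary like the other groups. Calls lost or gained in such fits are therefore not read as results.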
